A study of Mus musculus with 16 samples.

Results

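The Cdc42 family described here holds *Cdc42* and the genes of its Borg effectors, *Cdc42ep1* to *Cdc42ep5*. Members were the rows of the deposited count table whose symbol is in this set of 6, and 6 of the 14474 genes in the table matched. The set was chosen by the measured values of *Cdc42ep3*, selected on its higher level both in cells with integrin α3β1 and after laminin-332 (LN332), so the values of *Cdc42ep3* are given as a description, without a test. The other 5 genes were taken to have entered by family name, and for them the tests across all genes are given.

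RNA was sequenced from immortalized mouse keratinocytes (MK cells) that lack the α3 integrin subunit (MKα3−) and from MK cells of the same origin with human α3 put back (MKα3+). Both lines were grown on collagen-coated dishes in low-calcium medium and given either vehicle or 0.02 mg/mL LN332 for 16 to 24 h, which gave 4 groups of 4 libraries. The lines are a null line and its reconstituted partner, so what differs between them for reasons other than α3 cannot be told apart from α3. The labels do not say whether replicates came from separate cultures, and the p-values measure only the spread between these libraries.

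Cdc42 is a small GTPase that is active with GTP bound and inactive with GDP bound. Exchange factors load it with GTP, GTPase-activating proteins (GAPs) return it to the GDP form, and effectors bind the active form. The Borg proteins are effectors that bind active Cdc42 through a short CRIB motif and also bind septins, GTP-binding proteins that assemble into filaments beside actin and membranes. In keratinocytes Cdc42 is known for its part in polarity, junctions and protrusion during migration, which is the setting in which laminin and α3β1 are studied.

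All 5 Borg genes encode a CRIB motif, and the 45 bases that encode its core are shown for each gene in the direction of the transcript (mm10, GENCODE M21). They were found by matching conserved residues in the translated coding sequence. Capitals mark the 27 bases that are identical in all 5 genes.
Cdc42ep1: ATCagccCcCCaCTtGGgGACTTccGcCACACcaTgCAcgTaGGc
Cdc42ep2: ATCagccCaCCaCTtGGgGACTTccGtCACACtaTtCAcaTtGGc
Cdc42ep3: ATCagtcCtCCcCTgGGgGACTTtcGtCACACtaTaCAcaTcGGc
Cdc42ep4: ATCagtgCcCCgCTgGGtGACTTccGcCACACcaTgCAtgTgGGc
Cdc42ep5: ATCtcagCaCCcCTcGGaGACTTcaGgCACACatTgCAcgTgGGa

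These stretches lie in coding exons, at chr15:78847468-78847512 on the plus strand for *Cdc42ep1*, and on the minus strand at chr19:5918544-5918588 for *Cdc42ep2*, chr17:79335355-79335399 for *Cdc42ep3*, chr11:113729441-113729485 for *Cdc42ep4* and chr7:4151677-4151721 for *Cdc42ep5*. The most alike pair was *Cdc42ep1* and *Cdc42ep2*, with 39 of 45 bases identical (86.7%), and the least alike was *Cdc42ep3* and *Cdc42ep5*, with 29 of 45 (64.4%). The 5 genes are on 5 chromosomes. Outside the CRIB core they differ widely in size, with a coding length of 450 bp for *Cdc42ep5*, 642 bp for *Cdc42ep2*, 762 bp for *Cdc42ep3*, 1047 bp for *Cdc42ep4* and 1227 bp for *Cdc42ep1*.

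Library totals ranged from 21735708 to 29338370 counts, and the shallowest library was replicate 4 of LN332-treated MKα3− cells. Replicate 1 of that group had the highest shares of mitochondrial mRNA (2.64%, lowest of all libraries 0.887%) and of the ribosomal transcript *Rn45s* (1.42%, lowest 0.502%). The targeted gene *Itga3* had 211 to 317 CPM (read counts scaled to the TMM-adjusted library size) over the 16 libraries and did not tell the lines apart. All 8 keratinocyte markers were in the table, led by *Krt5* and *Krt14*. *Krt15* had 1.52 to 10.4 CPM in MKα3− and 0.504 to 1.33 CPM in MKα3+ cells. *Trp63* had 100 to 168 CPM in vehicle-treated and 73.5 to 152 CPM in LN332-treated MKα3− cells. In MKα3+ cells it had 51.8 to 87.0 and 30.4 to 62.1 CPM in that order. For *Krt15* and *Trp63* the lines did not overlap in either treatment, beside 32.9% of all genes in vehicle and 26.5% in LN332. For the other markers the lines overlapped. In these bulk samples fewer cells with a transcript and less of it per cell cannot be told apart.

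Markers of other cells were low. The 4 of 6 fibroblast markers in the table summed to 11.4 to 30.0 CPM in vehicle-treated and 18.7 to 32.0 CPM in LN332-treated MKα3− cells, and to 17.6 to 27.9 and 25.2 to 39.4 CPM in MKα3+ cells, and *Dcn* and *Lum* were not in the table. The 3 endothelial markers summed to 3.16 to 5.77 CPM over all libraries. Of 4 melanocyte markers only *Pmel* was in the table, at 2.19 to 3.94 CPM in MKα3− and 0.827 to 1.71 CPM in MKα3+ libraries. Of 4 immune markers *Ptprc* and *Cd68* were in the table and summed to 12.3 to 41.9 CPM. The part of these genes in the results below was not tested.

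*Cdc42* itself (Entrez 12540, chr4:137319696-137357720, minus strand) was the most abundant gene of the family, and its groups overlapped. In replicates 1 to 4 it had 334, 309, 321 and 309 CPM in vehicle-treated MKα3− cells and 348, 327, 350 and 332 CPM in vehicle-treated MKα3+ cells. With LN332 it had 329, 364, 364 and 451 CPM in MKα3− cells and 346, 342, 388 and 352 CPM in MKα3+ cells. This held in every comparison, and the highest value was in the shallowest library. The log2 fold change of MKα3+ over MKα3− cells was 0.09 in vehicle (SE 0.09, adjusted p = 0.486, limma-voom) and −0.07 in LN332 (SE 0.09, adjusted p = 0.583, limma-voom). The 95% interval of the vehicle difference, −0.10 to 0.29, and that of the LN332 difference, −0.27 to 0.12, bound the change in this transcript.

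*Cdc42ep3* (Borg2, Entrez 260409, chr17:79333727-79355091, minus strand) was taken as the reason for the set. In replicates 1 to 4 it had 11.8, 10.8, 8.997 and 13.4 CPM in vehicle-treated and 16.2, 21.2, 16.2 and 31.9 CPM in LN332-treated MKα3− cells. In MKα3+ cells it had 35.1, 30.4, 31.8 and 27.3 CPM in vehicle and 64.3, 53.0, 53.2 and 51.8 CPM in LN332. Every MKα3+ library was above every MKα3− library of the same treatment, and every LN332 library was above every vehicle library of the same line. The highest LN332-treated MKα3− library (31.9 CPM) lay within the range of the vehicle-treated MKα3+ libraries.

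The log2 fold change of *Cdc42ep3* was 1.48 (SE 0.18) between the lines in vehicle and 1.45 (SE 0.16) in LN332, a fold of 2.79 and 2.74. The log2 LN332 response was 0.86 (SE 0.19) in MKα3− cells and 0.83 (SE 0.15) in MKα3+ cells, a fold of 1.81 and 1.78. The difference of the responses was −0.02 (SE 0.25), with a 95% interval of −0.54 to 0.49. These values belong to the contrasts for which the gene was chosen and are not evidence for them. The comparisons share groups, since each group enters one line contrast and one LN332 contrast. An exon of *Cdc42ep3* overlaps the opposite-strand lincRNA *Gm17315* by 188 bp, and whether reads were counted by strand is not given in the sources used here.

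**Figure D1:**
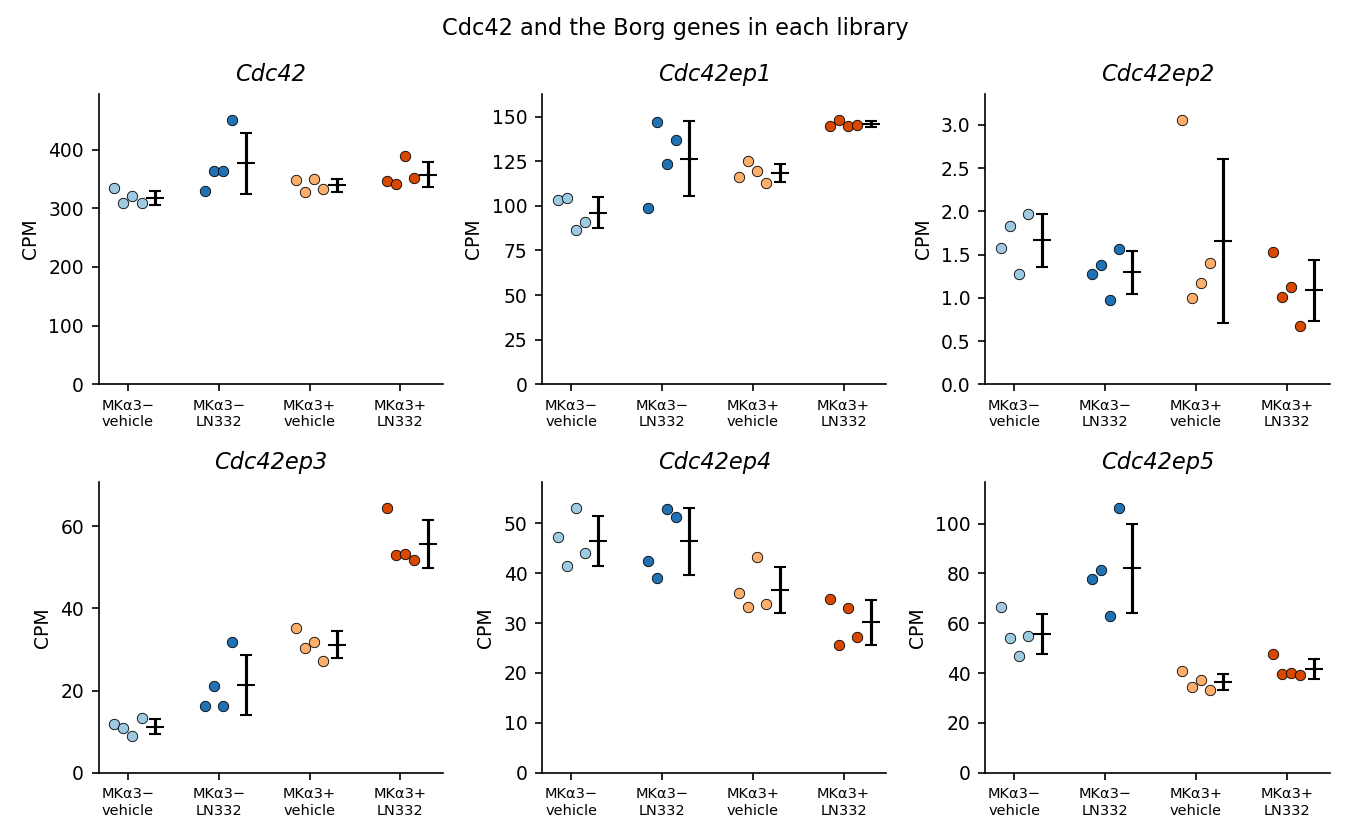
CPM of *Cdc42* and the 5 Borg genes (vertical axes from 0, a separate scale for each gene) in the 4 groups. Each point is a library, and the bar beside the points is the mean ± SD (n = 4). *Cdc42ep3* stands between 8.997 and 13.4 CPM in MKα3− cells with vehicle and from 51.8 to 64.3 CPM in MKα3+ cells with LN332, while *Cdc42ep5* is lowest in vehicle-treated MKα3+ cells.

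*Cdc42ep5* (Borg3, Entrez 58804, chr7:4151260-4164860, minus strand), the smallest Borg, was lower in MKα3+ cells with either treatment. In replicates 1 to 4 it had 66.5, 54.2, 46.9 and 55.1 CPM in vehicle-treated MKα3− cells against 40.8, 34.3, 37.3 and 33.4 CPM in vehicle-treated MKα3+ cells. With LN332 it had 77.7, 81.6, 63.0 and 106 CPM in MKα3− cells against 47.5, 39.6, 40.0 and 39.2 CPM in MKα3+ cells. The lines did not overlap in either treatment. The log2 fold change was −0.60 in vehicle (SE 0.14, adjusted p = 0.00359, limma-voom), a fold of 0.658, and −0.96 in LN332 (SE 0.14, adjusted p = 4.8e-05, limma-voom), a fold of 0.514. The gene was called lower in both contrasts under each of the alternative tests, normalizations, filters and left-out libraries, with the exception of a minimum log2 fold change of 1.

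*Cdc42ep4* (Borg4, Entrez 56699, chr11:113726850-113751881, minus strand) was lower in MKα3+ cells in LN332. In replicates 1 to 4 it had 42.4, 39.0, 52.8 and 51.3 CPM in LN332-treated MKα3− cells and 34.9, 25.6, 33.1 and 27.2 CPM in LN332-treated MKα3+ cells, without overlap. In vehicle it had 47.3, 41.5, 53.0 and 44.0 CPM in MKα3− cells and 36.0, 33.3, 43.2 and 33.8 CPM in MKα3+ cells, and there replicate 3 of the MKα3+ cells overlapped the MKα3− range. The log2 fold change was −0.62 in LN332 (SE 0.13, adjusted p = 0.00152, limma-voom), a fold of 0.652. In vehicle it was −0.35 (SE 0.13, adjusted p = 0.0487, limma-voom), which is under the fold threshold. Whether the 2 line contrasts differ is the same question as whether the LN332 responses differ, and that difference was −0.27 (95% interval −0.65 to 0.11).

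*Cdc42ep1* (Borg5, also MSE55, Entrez 104445, chr15:78842624-78850897, plus strand) had higher values in MKα3+ cells, by an amount that was not called. In replicates 1 to 4 of the vehicle groups it had 103, 104, 86.6 and 90.7 CPM in MKα3− cells and 116, 125, 119 and 113 CPM in MKα3+ cells, which did not overlap. With LN332 it had 98.5, 147, 123 and 137 CPM in MKα3− cells and 145, 148, 144 and 145 CPM in MKα3+ cells. The LN332-treated MKα3+ libraries lay between 144 and 148 CPM, whereas the LN332-treated MKα3− libraries spread over 98.5 to 147 CPM with replicate 1 lowest. The log2 fold change between the lines was 0.30 in vehicle (SE 0.10, adjusted p = 0.0373, limma-voom) and 0.22 in LN332 (SE 0.10, adjusted p = 0.118, limma-voom), both under the fold threshold. Its exons overlap the opposite-strand gene *Lgals2* by 38 bp.

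*Cdc42ep2* (Borg1, Entrez 104252, chr19:5915636-5924816, minus strand) was near the floor of the data, with 18 to 84 counts per library. It had 1.58, 1.83, 1.28 and 1.97 CPM in vehicle-treated and 1.28, 1.38, 0.969 and 1.56 CPM in LN332-treated MKα3− cells in replicates 1 to 4. In MKα3+ cells it had 3.06, 1.002, 1.18 and 1.40 CPM in vehicle and 1.53, 1.015, 1.13 and 0.674 CPM in LN332. The value of 3.06 CPM stood above all the others, and the groups overlapped in every comparison. Its log2 fold change between the lines in vehicle was −0.11 with a 95% interval of −0.77 to 0.54, and with 1 library left out it ran from −0.46 to 0.071, the lowest being without the library at 3.06 CPM.

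Of the 5 genes other than *Cdc42ep3*, the contrast between the lines in vehicle called 1 lower (*Cdc42ep5*) and 0 higher, where 18.5% of all genes were called (10.9% higher and 7.56% lower). In LN332 it called 2 lower (*Cdc42ep4* and *Cdc42ep5*) and 0 higher, where 20.6% were called (11.7% higher and 8.92% lower). With 5 genes these counts are no result about the family beside such a background, and the genes are given for their own values. The ranges of the lines did not overlap for 2 of the 5 in vehicle and for 2 of the 5 in LN332, against 32.9% and 26.5% of all genes.

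**Figure D2:**
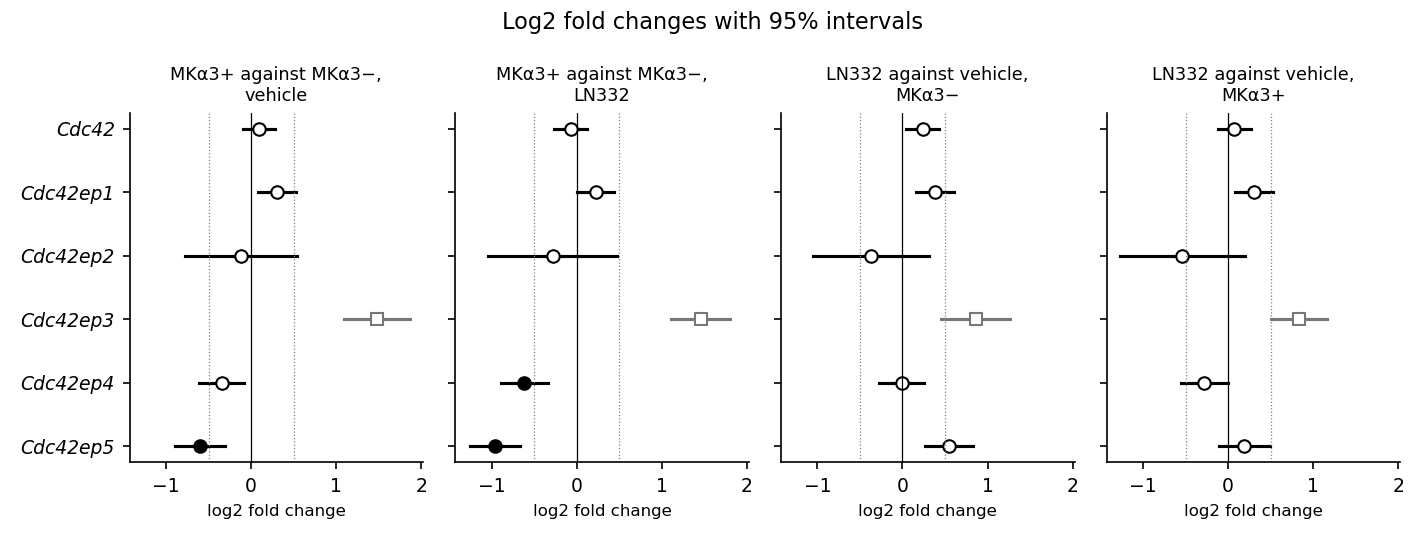
Log2 fold change (horizontal axis) with its 95% interval from limma-voom for each gene, in the line contrasts with vehicle and with LN332 and in the LN332 contrasts in each line. Filled circles passed an adjusted p under 0.05 with an absolute log2 fold change over 0.5 (dotted lines), open circles did not, and the grey squares of *Cdc42ep3* are a description only. *Cdc42ep5* lies at −0.60 and −0.96 in the line contrasts, opposite to *Cdc42ep3* at 1.48 and 1.45.

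The response to LN332 was the second comparison. In MKα3+ cells 0 of the 5 genes were called by limma-voom, where 0.187% of all genes were called. There, 2 of the 5 had an unadjusted p under 0.05, as did 9.59% of all genes, and edgeR and DESeq2 also called 0. Same-numbered libraries deviated together in this contrast, although the labels do not state a pairing. With the number as a block 0 of the 5 were again called, where 1.51% of all genes were. In MKα3− cells limma-voom called 0 of the 5, where 0.304% of all genes were called, with 3 at an unadjusted p under 0.05, as were 14.0% of all genes. There edgeR called 0 and DESeq2 1 (*Cdc42ep5*), where DESeq2 called 1.14% of all genes.

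The ranges with LN332 and with vehicle did not overlap for 1 of the 5 (*Cdc42ep1*) in MKα3+ cells, beside 9.66% of all genes, and for 0 of the 5 in MKα3− cells, beside 4.95%. *Cdc42ep1* had a log2 response of 0.30 (SE 0.10, adjusted p = 0.299, limma-voom) in MKα3+ cells, in which the groups did not overlap, and of 0.38 (SE 0.10, adjusted p = 0.132, limma-voom) in MKα3− cells, in which replicate 1 with LN332 lay within the vehicle range. *Cdc42ep5* had 0.19 (SE 0.14, adjusted p = 0.792, limma-voom) in MKα3+ and 0.54 (SE 0.13, adjusted p = 0.0894, limma-voom) in MKα3− cells. The *Cdc42ep5* ranges with LN332 and with vehicle overlapped in both lines. Within a replicate number its log2 difference was 0.10 to 0.23 in MKα3+ cells and 0.23 to 0.95 in MKα3− cells. In MKα3− cells the numbers were not taken as pairing. *Cdc42ep4* had −0.28 (SE 0.13) and −0.01 (SE 0.12), and *Cdc42* had 0.07 (SE 0.09) and 0.24 (SE 0.09), in MKα3+ and MKα3− cells respectively.

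Averaged over both lines, the log2 LN332 response was 0.34 for *Cdc42ep1* (SE 0.07, adjusted p = 0.0150, limma-voom) and 0.37 for *Cdc42ep5* (SE 0.10, adjusted p = 0.0420, limma-voom). Both passed the adjusted p and stayed under the fold threshold, so 0 of the 5 were called, where 1.35% of all genes were, and 3 had an unadjusted p under 0.05, as did 19.8% of all genes. edgeR and DESeq2 called 0 as well. *Cdc42ep3* stood at 0.85 (SE 0.12) on the same scale. The difference of the responses between the lines called 0 of the 5 genes and 0% of all genes, with 0 of the 5 at an unadjusted p under 0.05 and 1.13% of all genes. For *Cdc42ep5*, which had the largest estimate of the 5, the difference was −0.36 with a 95% interval of −0.77 to 0.06.

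Ranked per kb of exon, which allows levels to be compared between genes, *Cdc42* was first in all 4 groups and *Cdc42ep2* last. *Cdc42* had 107 ± 4.09 CPM per kb (SD, n = 4) in MKα3− cells with vehicle, and *Cdc42ep2* 0.488 ± 0.0894 CPM per kb. In MKα3− cells *Cdc42ep5* came next, at 43.2 ± 6.27 CPM per kb in vehicle and 63.7 ± 13.9 in LN332, with a range that overlapped that of *Cdc42ep1* at 37.6 ± 3.45 and 49.3 ± 8.17 CPM per kb. In MKα3+ cells *Cdc42ep1* came next, at 46.2 ± 2.02 and 56.9 ± 0.648 CPM per kb, apart from *Cdc42ep5* at 28.3 ± 2.60 and 32.3 ± 3.08 CPM per kb. The order in MKα3− cells rests on the exon lengths. In CPM *Cdc42ep1* was above *Cdc42ep5* there too, at 96.1 ± 8.82 against 55.7 ± 8.07 in vehicle and 126 ± 20.9 against 82.1 ± 17.9 in LN332.

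*Cdc42ep3* and *Cdc42ep4* also stood in a different order per kb in the 2 lines. In vehicle-treated MKα3− cells *Cdc42ep4* stood at 12.8 ± 1.36 CPM per kb and *Cdc42ep3* at 4.87 ± 0.791 CPM per kb (SD, n = 4), whereas in LN332-treated MKα3+ cells they stood at 8.29 ± 1.23 and 24.1 ± 2.54 CPM per kb. The ratio of *Cdc42ep3* to *Cdc42ep4* per kb was over 1 in 0 of 8 MKα3− libraries and in 8 of 8 MKα3+ libraries. It was 0.388 ± 0.0881, 0.731 ± 0.228, 1.35 ± 0.169 and 2.93 ± 0.301 in the order vehicle-treated MKα3−, LN332-treated MKα3−, vehicle-treated MKα3+ and LN332-treated MKα3+ cells. In LN332-treated MKα3− and vehicle-treated MKα3+ cells the per-kb ranges of the 2 genes overlapped. The order in vehicle-treated MKα3+ cells rests on the exon lengths. In CPM *Cdc42ep3* was lower there, at 31.2 ± 3.25 against 36.6 ± 4.60 CPM for *Cdc42ep4*. The ratio of *Cdc42ep3* to *Cdc42ep5* per kb was 0.477 ± 0.0156 in vehicle-treated and 0.745 ± 0.00767 in LN332-treated MKα3+ cells, against 0.113 ± 0.0158 and 0.143 ± 0.0209 in MKα3− cells. These ratios contain *Cdc42ep3* and are a description.

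As a sum the Borg genes were at 211 ± 14.3 CPM in vehicle-treated MKα3− and 224 ± 11.1 CPM in vehicle-treated MKα3+ cells, which overlapped, and at 277 ± 40.2 and 274 ± 13.1 CPM with LN332. Within that sum the make-up differed. The sum and the shares contain *Cdc42ep3* and are a description, since a higher share of *Cdc42ep3* lowers the other shares. *Cdc42ep1* held 45.5% ± 2.36 and 52.8% ± 2.53 of it in vehicle-treated MKα3− and MKα3+ cells, *Cdc42ep5* 26.3% ± 2.12 and 16.3% ± 0.982, *Cdc42ep4* 22.1% ± 3.30 and 16.3% ± 1.61, and *Cdc42ep3* 5.32% ± 0.836 and 13.9% ± 0.907. With LN332 the share of *Cdc42ep3* was 7.55% ± 1.504 in MKα3− and 20.2% ± 1.14 in MKα3+ cells, where *Cdc42ep4* held 11.0% ± 1.25 and *Cdc42ep5* 15.1% ± 0.711. These shares weight long transcripts more, and per kb of exon *Cdc42ep3* held 19.7% ± 0.996 in LN332-treated MKα3+ cells, *Cdc42ep4* 6.78% ± 0.775 and *Cdc42ep5* 26.5% ± 1.09. *Cdc42ep2* stayed at or under 1.32% in every library.

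**Figure D3:**
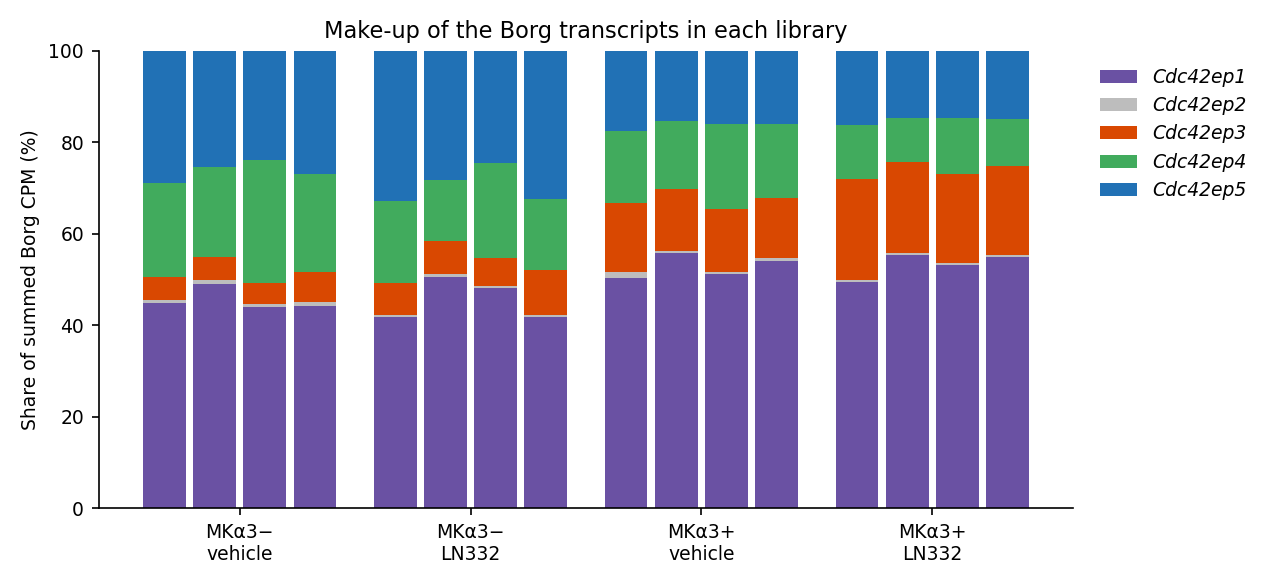
Share of each Borg gene in the summed Borg CPM (vertical axis, %, from 0 to 100), 1 bar per library in 4 groups. The shares contain *Cdc42ep3* and are a description. *Cdc42ep3* (orange) holds 4.57% to 6.52% of the sum in vehicle-treated MKα3− libraries and 19.6% to 21.9% in LN332-treated MKα3+ libraries, while *Cdc42ep5* (blue) is smaller in every MKα3+ library.

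Since *Cdc42ep3* and *Cdc42ep5* differed between the lines in opposite directions, the start regions of both are shown, from 250 bases before to 50 after the start site (RefSeq, GRCm38.p6, in the direction of the transcript). For *Cdc42ep3*, at chr17:79355042-79355341 on the minus strand, capitals mark GGGCGG on either strand, the core of a GC box, and neighbouring matches can share bases. For *Cdc42ep5*, at chr7:4164656-4164955 on the minus strand, capitals mark GGAATG on either strand, the core of a TEAD site.
Cdc42ep3: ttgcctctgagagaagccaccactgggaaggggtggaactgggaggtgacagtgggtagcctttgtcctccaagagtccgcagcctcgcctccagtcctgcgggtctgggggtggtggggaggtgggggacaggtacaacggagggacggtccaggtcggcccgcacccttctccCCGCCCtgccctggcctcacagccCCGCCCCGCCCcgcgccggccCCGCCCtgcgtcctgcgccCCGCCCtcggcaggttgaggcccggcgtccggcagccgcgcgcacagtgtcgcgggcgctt
Cdc42ep5: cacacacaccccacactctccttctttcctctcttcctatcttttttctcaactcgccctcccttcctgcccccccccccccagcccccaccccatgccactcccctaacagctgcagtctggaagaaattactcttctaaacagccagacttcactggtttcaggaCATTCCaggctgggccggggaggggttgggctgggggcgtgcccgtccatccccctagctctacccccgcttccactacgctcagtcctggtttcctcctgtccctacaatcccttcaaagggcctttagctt

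The *Cdc42ep3* region has 73.0% GC with 27 CpG and the *Cdc42ep5* region 58.7% GC with 6 CpG, beside a median of 52.7% GC over 32851 mouse promoters of the same length. GGGCGG occurs 5 times in the first and 0 times in the second, and in 35.7% of all promoters. GGAATG occurs 0 times in the first and 1 time in the second, and in 14.7% of all promoters. TGANTCA, the AP-1 core found in 7.81% of all promoters, occurs in neither window, nor in those of the other 4 genes. GGGCGG is not particular to *Cdc42ep3*, with 5 matches in the window of *Cdc42ep1*, 3 in that of *Cdc42ep2* and 2 in that of *Cdc42*, nor is GGAATG to *Cdc42ep5*, with 1 match each for *Cdc42ep1* and for 1 of the 2 start sites of *Cdc42ep4*. A match is a description of letters and not a bound site.

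The genes whose levels ran most like each member were found by the root-mean-square (RMS) difference of centred log2 CPM over the 16 libraries. For *Cdc42ep3* these were *Usp43*, a deubiquitinase (0.25), *Krt80*, an epithelial keratin (0.27), *Ccn4*, a secreted matricellular protein (0.27), *Cited2*, a transcriptional coregulator (0.28), and *Eif4ebp1*, an inhibitor of cap-dependent translation (0.28), beside a median of 0.90 over 11643 genes. *Eif4ebp1* had 128 ± 23.1, 219 ± 78.3, 461 ± 80.4 and 659 ± 73.2 CPM in vehicle-treated MKα3−, LN332-treated MKα3−, vehicle-treated MKα3+ and LN332-treated MKα3+ cells. *Krt80* had 41.7 ± 9.60, 69.5 ± 13.6, 140 ± 21.1 and 205 ± 32.7 CPM in the same order. In each of the 5 genes replicate 4 was highest of the LN332-treated MKα3− libraries, as it was for *Cdc42ep3*. That library, the shallowest, entered the choice of these genes, so their likeness there is no separate observation. *Usp43* and *Krt80* overlap opposite-strand transcripts by 609 bp and 263 bp of exon.

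**Figure D4:**
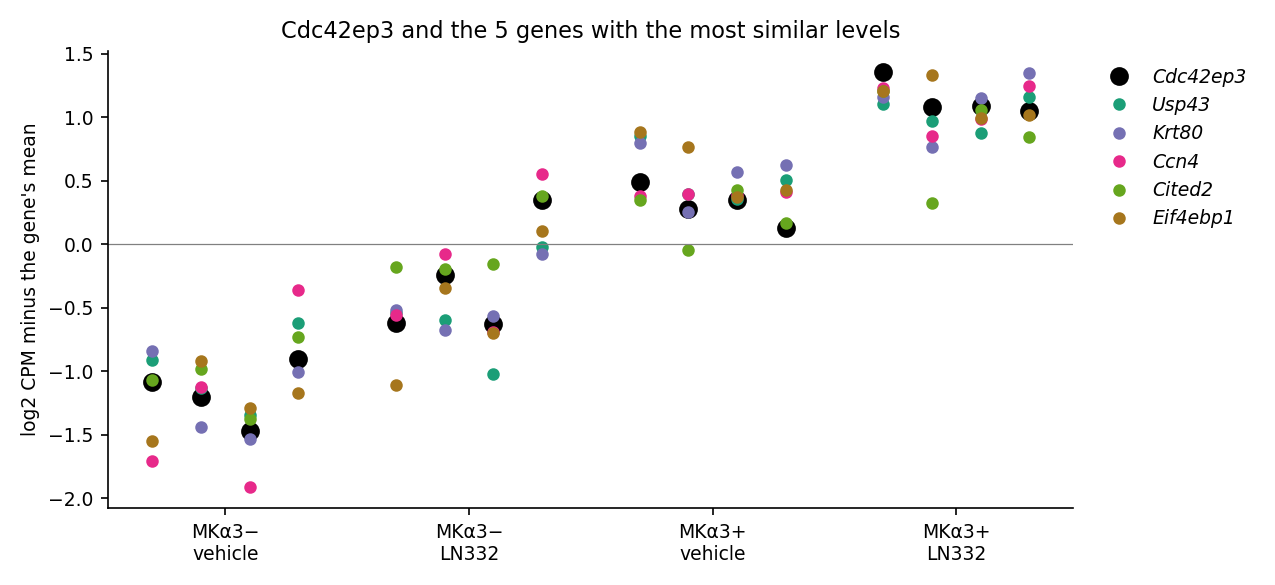
Log2 CPM minus each gene's mean over the 16 libraries (vertical axis) for *Cdc42ep3* (large black points) and the 5 genes with the smallest RMS difference from it, replicates 1 to 4 from left to right within each group. In the MKα3+ groups all 6 genes stand near or above 0, and in vehicle-treated MKα3− cells all stand below it.

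For *Cdc42* the most alike were *Morf4l1-ps1*, a processed pseudogene whose reads may belong to its parent gene (0.06), and *Rac1* (0.06), a small GTPase related to Cdc42, which overlaps *Daglb* on the opposite strand by 2309 bp of exon. For *Cdc42ep1* they were *Eef1e1* (0.10), a part of the tRNA synthetase complex, and *Hapstr1* (0.10). For *Cdc42ep4* they were *Gas2l1* (0.12), which links actin and microtubules, and *Abr* (0.12), a GAP of the list used below. For *Cdc42ep5* they were *Btg1* (0.14), an antiproliferative gene, and *Gm5148* (0.14), which overlaps a ribosomal protein pseudogene and is uncertain.

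For *Cdc42ep2* the most alike were the interferon-inducible genes *Iigp1c* (0.23) and *Cmpk2* (0.27). *Iigp1c* had 92.1 CPM in replicate 1 of vehicle-treated MKα3+ cells and 35.6 to 38.7 CPM in the other 3, and *Cmpk2* had 312 CPM there and 116 to 175 CPM in the other 3. This is the library with 3.06 CPM of *Cdc42ep2*. These genes were picked for likeness over the same libraries, so their high levels there are no separate observation. All RMS values rest on 16 libraries in which the same groups and library sizes enter every gene.

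The other genes of the Cdc42 and septin system were taken as lists. Of 24 exchange factors, 5 were called higher and 4 lower in MKα3+ cells in vehicle, and 5 higher and 4 lower in LN332. Over all genes 10.9% were called higher and 7.56% lower in vehicle, and 11.7% and 8.92% in LN332. Whether this or the following lists differ from those shares was not tested. The median log2 fold change in vehicle was 0.21 over the list and 0.01 over all genes, and in LN332 it was 0.13 over the list. *Dock8*, an exchange factor of the DOCK family, had 19.3 ± 2.004 CPM with α3 (MKα3+) against 6.48 ± 0.875 CPM without it (MKα3−) in vehicle, that is 1.58 on the log2 scale (SE 0.14, adjusted p = 2.51e-07, limma-voom). *Spata13*, which encodes the exchange factor Asef2, had 16.9 ± 1.32 and 5.58 ± 1.07 CPM, that is 1.61 on the log2 scale (SE 0.17, adjusted p = 1.26e-06, limma-voom). *Fgd1*, another exchange factor, singled out after its values were seen, had 4.94 to 9.53 CPM in vehicle-treated MKα3− and 0.0783 to 0.441 CPM in vehicle-treated MKα3+ cells.

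Of the 11 GAPs and GDP dissociation inhibitors measured, 2 were called higher and 0 lower in vehicle, and 2 higher and 1 lower in LN332. Beside them, 18.5% of all genes were called in vehicle and 20.6% in LN332. *Arhgap44*, a GAP, had 13.2 ± 2.79 CPM with α3 (MKα3+) against 2.57 ± 0.430 CPM without it (MKα3−) in vehicle, that is 2.34 on the log2 scale (SE 0.22, adjusted p = 3.46e-07, limma-voom). *Arhgdib*, a GDP dissociation inhibitor, had 30.2 ± 4.15 and 10.5 ± 3.15 CPM, that is 1.57 on the log2 scale (SE 0.16, adjusted p = 1.1e-06, limma-voom). The list medians were −0.10 in vehicle and −0.03 in LN332. *Arhgdib* shares 136 bp of exon with *Pde6h* and *Arhgap44* 31 bp with *Elac2*, both on the opposite strand.

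Of the 24 other effectors measured, 4 were called higher and 2 lower in vehicle (list median 0.12), and 3 higher and 1 lower in LN332 (list median 0.10). Calls over all genes were 18.5% in vehicle and 20.6% in LN332. *Pak3*, a kinase activated by Cdc42 and Rac, had 26.5 ± 1.99 CPM with α3 (MKα3+) against 11.3 ± 1.502 CPM without it (MKα3−) in vehicle, that is 1.23 on the log2 scale (SE 0.12, adjusted p = 4.09e-07, limma-voom). *Fnbp1l*, the F-BAR protein Toca-1 that links Cdc42 to actin assembly, had 115 ± 6.16 and 51.2 ± 1.91 CPM, that is 1.17 on the log2 scale (SE 0.08, adjusted p = 1.84e-08, limma-voom). *Pard6b*, a Par polarity protein, was the only effector of this list called in the averaged LN332 response, with 0.58 (SE 0.10, adjusted p = 0.00352, limma-voom). Its LN332 range was above the vehicle range in both lines, 132 to 177 CPM over 77.1 to 121 CPM in MKα3− cells and 187 to 237 CPM over 127 to 164 CPM in MKα3+ cells. Ranges did not overlap for 4.95% of all genes in MKα3− and 9.66% in MKα3+ cells.

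Septins are the filament partners of the Borg proteins. Of 11 measured, 2 were called higher and 1 lower in vehicle (list median 0.05), and 2 higher and 2 lower in LN332 (list median −0.03). The shares of all genes called were 18.5% and 20.6%. *Septin11* had 367 ± 17.5 CPM with α3 (MKα3+) against 213 ± 24.1 CPM without it (MKα3−) in vehicle, that is 0.79 on the log2 scale (SE 0.14, adjusted p = 0.000320, limma-voom), and 515 ± 30.4 against 287 ± 66.7 CPM in LN332, that is 0.87 on the log2 scale (SE 0.14, adjusted p = 0.000141, limma-voom). Its averaged LN332 response was 0.45 (SE 0.10, adjusted p = 0.0161, limma-voom), under the fold threshold. In the single lines the response was not called, at adjusted p = 0.184 in MKα3+ and 0.200 in MKα3− cells (limma-voom). In MKα3− cells its range with LN332, 204 to 353 CPM, overlapped that with vehicle, 192 to 234 CPM. The signs of its estimates were those of *Cdc42ep3* in both comparisons. This is a description, since *Cdc42ep3* was taken as chosen for those signs, and a link between the genes was not tested.

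*Septin7*, the core subunit of septin filaments, had 157 ± 8.95 and 162 ± 5.07 CPM in vehicle-treated MKα3− and MKα3+ cells, that is 0.05 on the log2 scale (SE 0.07, adjusted p = 0.682, limma-voom), and *Septin2* and *Septin9* were not called either. The other septin called higher in both contrasts was *Septin3*, which was low, with at most 3.61 CPM in any library. *Septin10* was called lower in vehicle by a log2 difference of −0.73 (SE 0.25, adjusted p = 0.0384, limma-voom), a call that was lost without any single library of vehicle-treated MKα3+ cells and without replicate 2, 3 or 4 of vehicle-treated MKα3− cells, at adjusted p = 0.0575 to 0.107 (limma-voom). In LN332 it was called lower too, by −0.80 (SE 0.29, adjusted p = 0.0413, limma-voom), and leaving out replicate 2 or 3 of vehicle-treated MKα3+ cells, replicate 2, 3 or 4 of LN332-treated MKα3− cells or any LN332-treated MKα3+ library took that call away, at adjusted p = 0.0508 to 0.120. *Septin5* was lower in LN332, 2.37 ± 0.517 against 6.43 ± 2.34 CPM, and shares exon sequence with *Gp1bb* on the same strand, so its reads are uncertain.

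**Figure D5:**
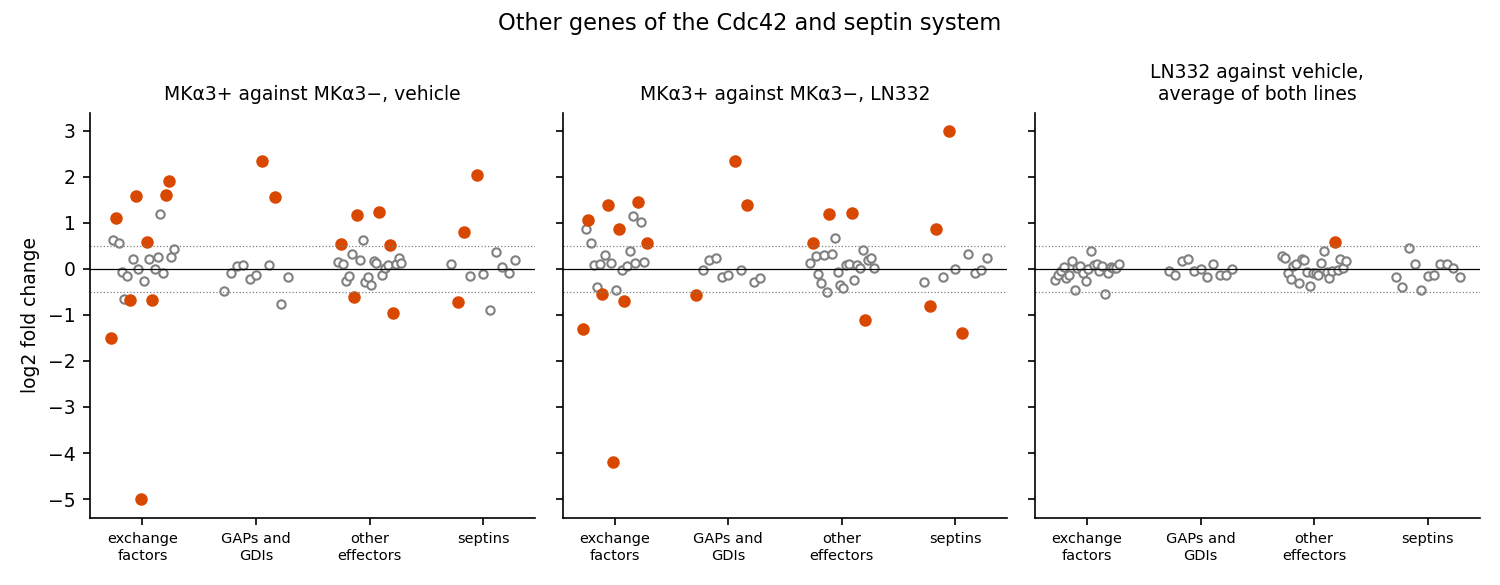
Log2 fold change (vertical axis) of each measured gene of the exchange factor, GAP and GDI, other effector and septin lists, for MKα3+ against MKα3− cells in vehicle and in LN332 and for the LN332 response averaged over both lines. Orange points passed an adjusted p under 0.05 with an absolute log2 fold change over 0.5 (dotted lines). Called genes lie on both sides of 0 in the line contrasts, while the averaged LN332 response has 1 effector above them.

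In the LN332 contrasts of the single lines limma-voom and edgeR called 0 genes of these 4 lists. In MKα3+ cells the number at an unadjusted p under 0.05 by limma-voom was 2 of 24 exchange factors, 2 of 11 GAPs and GDP dissociation inhibitors, 6 of 24 effectors and 1 of 11 septins, beside 9.59% of all genes. In MKα3− cells it was 3, 0, 8 and 2 in the same order, beside 14.0% of all genes. These counts are no result about the lists. DESeq2 called *Pard6b* higher in both lines. With a block for the replicate number *Pard6b* and the exchange factor *Fgd3* were called in MKα3+ cells, at adjusted p = 0.0318 and 0.0479 (limma-voom).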

How the data were processed

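Poly(A) RNA of 16 libraries was sequenced. The authors aligned reads to mm10 (Rsubread), used featureCounts with the Entrez gene annotation it carries, and deposited the raw counts of 14474 genes. The strand setting is not given in the sources used here. The submitters' processing notes also name bcl2fastq 2.20, edgeR and limma.

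Genes with more than 0.5 CPM in at least 3 libraries were kept, which removed 0 genes. TMM factors (edgeR 4.0.16) and limma-voom (limma 3.58.1, R 4.3.3) were applied, as in the study's methods, here to all 16 libraries in one fit with a coefficient per group. A gene was called at a Benjamini-Hochberg adjusted p under 0.05 over all genes and an absolute log2 fold change over 0.5. CPM are TMM-normalized. CPM per kb use the merged exon length of GENCODE M21, while the reads were counted on the Entrez annotation, whose exons may differ. RMS differences used log2 CPM with a prior count of 2, among genes that have a symbol and average log2 CPM 1 or more. Total counts per library ranged from 21735708 to 29338370, and *Cdc42ep2*, with 18 to 84 counts, is the least precise member.

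The members, lists and rules were chosen with earlier results of these data known. The genes named are all members, the 5 most alike genes for *Cdc42ep3* and 2 for each other member, and per list and contrast the 2 called genes with the largest absolute log2 fold change among genes that average log2 CPM 1 or more. *Fgd1*, *Septin2*, *Septin3*, *Septin7*, *Septin9* and *Fgd3* were named after their values were seen. A further list of genes is not reported here. No 2 replicates differed by as little as sampling noise (smallest chi-square per degree of freedom 5.43).

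Replicate numbers come from the labels. Same-numbered libraries deviated together at correlations of 0.202 to 0.620 for LN332 against vehicle in MKα3+ cells. These were all over 0.1, which was taken as pairing here, although the labels do not state it. There, replicate 3 with vehicle correlated more with replicate 4 with LN332 (0.358) than with replicate 3. Correlations ran from −0.0118 to 0.507 in MKα3− cells, 0.0913 to 0.267 between the lines in vehicle and −0.0469 to 0.558 in LN332. Those were not taken as pairing. The alternatives tried were other tools (the quasi-likelihood test of edgeR and DESeq2 1.42.0), scalings, filters and fold thresholds, quality weights, a replicate block, a fit on the compared groups alone, and leaving out each library. The limma-voom fit was also tried on simulated counts without links between same-numbered libraries, so that trial does not bear on such links in these data.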

Additional observations from a re-analysis of the deposited data

Results flagged for a closer look

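Replicate 1 of LN332-treated MKα3+ cells stood far above the other 3 libraries of its group for *Cdc42ep3*, at 64.3 CPM against 51.8 to 53.2 CPM. The same library stood above the others for *Cdc42ep5*, at 47.5 CPM against 39.2 to 40.0 CPM. In that library *Rn45s* took 1.06% of the counts, against 0.520% to 0.748% in the other 3. Chance flags about 1 in 20 groups of 4, and of 24 gene and group combinations tested 2 were flagged where 1.2 would be by chance. Without that library the log2 fold changes keep their sign in all contrasts for both genes. The cause was not tested.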

How the results depend on the processing

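The calls of *Cdc42ep5* (both line contrasts) and *Cdc42ep4* (LN332) were unchanged by tool, scaling, filter, the replicate block, quality weights and each left-out library. Without a minimum fold change, the numbers called of the 5 genes other than *Cdc42ep3* were 3 between the lines in vehicle (28.4% of all genes) and 2 in the averaged response (4.40%). With a minimum log2 fold change of 1 they were 0 in vehicle (9.41%) and 0 in LN332 (9.29%). For the LN332 response in MKα3− cells the number was 1 with DESeq2, 1 with the replicate block (*Cdc42ep5*, 0.54, adjusted p = 0.0189, limma-voom), 2 with quality weights (*Cdc42ep5* and *Cdc42ep1*) and 0 to 1 with 1 library left out, 1 being without replicate 3 of LN332-treated MKα3− cells (*Cdc42ep5*, 0.67). Over these alternatives the adjusted p of *Cdc42ep5* there ran from 0.0123 to 0.479. The cause was not tested.

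Signs turned only for estimates near 0. *Cdc42* in LN332-treated against vehicle-treated MKα3+ cells was −0.0051 with library size alone. With 1 library left out the log2 fold change ran from −0.46 to 0.071 for *Cdc42ep2* between the lines in vehicle, from −0.14 to 0.015 for *Cdc42* between the lines in LN332 (positive without replicate 4 of LN332-treated MKα3− cells), from −0.079 to 0.070 for *Cdc42ep4* with LN332 in MKα3− cells, and, in the difference of the responses, from −0.35 to 0.18 for *Cdc42ep2* and from −0.14 to 0.16 for *Cdc42ep3*.

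Over all genes the LN332 response in MKα3+ cells had 27 calls, against 4 with edgeR, 121 with DESeq2, 3 with library size alone, 218 with the replicate block, 454 with quality weights, 106 with only the groups compared and 0 to 47 with 1 library left out. In MKα3− cells it had 44, against 165 with DESeq2, 74 with library size alone (24 higher and 50 lower, where the main split was 35 and 9), 259 with the replicate block, 123 with quality weights, 1 with only the groups compared and 1 to 150 with 1 library left out. In the average it had 196 (133 higher and 63 lower), against 363 with the replicate block, 464 with quality weights (221 and 243) and 84 higher and 174 lower with library size alone. Same-numbered libraries correlated at a mean of 0.255 and others at −0.0796, and 35 of 48 library and group combinations correlated best with their own number, a hint from the data and not from the design. The replicate block changed no other call of the 5 genes. In MKα3− cells it also called *Pard6b* (0.64, adjusted p = 0.0106, limma-voom) and *Fgd1* (−0.72, adjusted p = 0.0291, limma-voom).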
